A study of Mus musculus with 6 samples.

Results

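The nucleosome remodelling and deacetylase (NuRD) complex was examined in mouse embryonic stem (ES) cells that carried a vector for FLAG-CTCFL or a control vector. The members were chosen by gene symbol: Mbd2, Mbd3, Chd3, Chd4, Hdac1, Hdac2, Mta1, Mta2, Mta3 and Gatad2a. All 10 were measured, among 19937 genes in all, and each was read from the brightest of its probe sets. The parental line, 46C, is male, carries GFP knocked in at Sox1 and has a 129P2/OlaHsd background. Both groups were cloned from it, stably transfected and kept in medium with serum under puromycin. The cells of one group carried FLAG-tagged mouse CTCFL, a paralog of the insulator protein CTCF that is normally made in male germ cells, and the other cells carried the control vector. Each group had 3 arrays, one for each replicate, and the labels do not say how many clones or transfections the replicates come from. The p-values therefore measure only the spread between these arrays, and the number of arrays limits the precision.

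NuRD joins an ATP-driven nucleosome remodeller (Chd3, Chd4 or Chd5) to histone deacetylases (Hdac1 and Hdac2) on a scaffold of MTA proteins, with Rbbp4 and Rbbp7 as histone chaperones. Either Mbd2 or Mbd3 occupies the complex, not both, and links the deacetylase core to the Gatad2 and Chd proteins; Mbd2 binds methylated DNA strongly, whereas mammalian Mbd3 does not. In ES cells, Mbd3-containing NuRD is known to restrain a set of pluripotency and trophoblast genes and to be needed for normal exit from self-renewal.

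Array medians lay between 7.92 and 7.99 on the log2 scale, and the arrays' SD was lowest, at 1.41, in FLAG-CTCFL replicate 2. Pearson's r across genes, which are not independent replicates, was 0.9969 to 0.9981 within the FLAG-CTCFL group, 0.9983 to 0.9986 within the control group and 0.9826 to 0.9849 between groups. Ctcfl itself had log2 signals of 11.33, 11.22 and 11.24 in FLAG-CTCFL cells, against 7.70, 7.85 and 7.89 in control cells, so the arrays bore out their labels. All 8 ES cell markers were bright, with group means of 11.46 to 13.26 in FLAG-CTCFL cells and 11.57 to 13.64 in control cells; 1 (Sall4, 0.21) was higher in FLAG-CTCFL cells and 4 were lower, Nanog by most (-0.62). Of 7 fibroblast markers, Col1a1 (0.16) was higher, Thy1 (-0.48) was lower and Vim was the only one with group means above 9. Of 8 markers of differentiated lineages 5 were higher and none lower. The 8 had group means of at most 8.58 in FLAG-CTCFL cells and 8.55 in control cells. The 5 higher ones were dim in control cells, from 7.56 (Cdx2) to 7.92 (Gata6). For comparison, 95% of the 1194 genes for smell and pheromone receptors stay under 7.63. The shares called were 62.5% of ES cell markers, 28.6% of fibroblast markers and 62.5% of lineage markers. Of all genes 30.9% were called, 12.5% as higher, and of those at or above the median signal 49.3% were called. The call of Col1a1 was lost in 5 of 15 alternatives, among them leaving out FLAG-CTCFL replicate 2 or 3 or control replicate 1 or 2 (adjusted p up to 0.127). Summed over each list, log2 signal ranged from 99.3 to 100.3 in FLAG-CTCFL arrays and 101.2 to 101.4 in control arrays for ES cell markers. The sums were 59.9 to 60.5 in FLAG-CTCFL arrays and 60.1 to 60.4 in control arrays for fibroblast markers, and 64.3 to 64.7 in FLAG-CTCFL arrays and 62.8 to 63.4 in control arrays for lineage markers. Their part in the results on NuRD genes was not tested, and in such bulk samples fewer cells of a type and less RNA per cell cannot be told apart.

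The NuRD genes did not move as a block. Mbd3 rose 1.67-fold in FLAG-CTCFL cells, while 5 of the 10 genes (Chd3, Chd4, Hdac2, Mta1 and Mta3) fell by 0.16 to 0.31 on the log2 scale, and Mbd2, Hdac1, Mta2 and Gatad2a did not pass the test. A gene was called changed at a Benjamini-Hochberg adjusted p under 0.05 over all 19937 genes, in limma's moderated test. Of all genes, 12.5% were called higher and 18.4% lower, or 30.9% in all. The NuRD genes are brighter than most, all of them above the median gene, and of the 9969 genes at or above the median signal 18.6% were called higher and 30.8% lower. The single rise among 10 genes was thus no more frequent than the background, and the falls, 5 of 10, compare with 30.8% of such genes. Only 3.56% of all genes passed and also changed at least 1.5-fold, and Mbd3 was the single NuRD gene to do so. The median log2 fold change was -0.13 over the 10 genes, against 0.0037 over all genes and -0.02 over those at or above the median signal. The balance of calls depended on array scaling: after quantile normalization 2 NuRD genes were higher and 4 lower, and over all genes 3943 were higher and 3306 lower, against 2496 and 3665 as deposited. The groups did not overlap for 7 of the 10 genes, against 41.3% of all genes and 59.5% of those at or above the median signal.

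**Figure D1:**
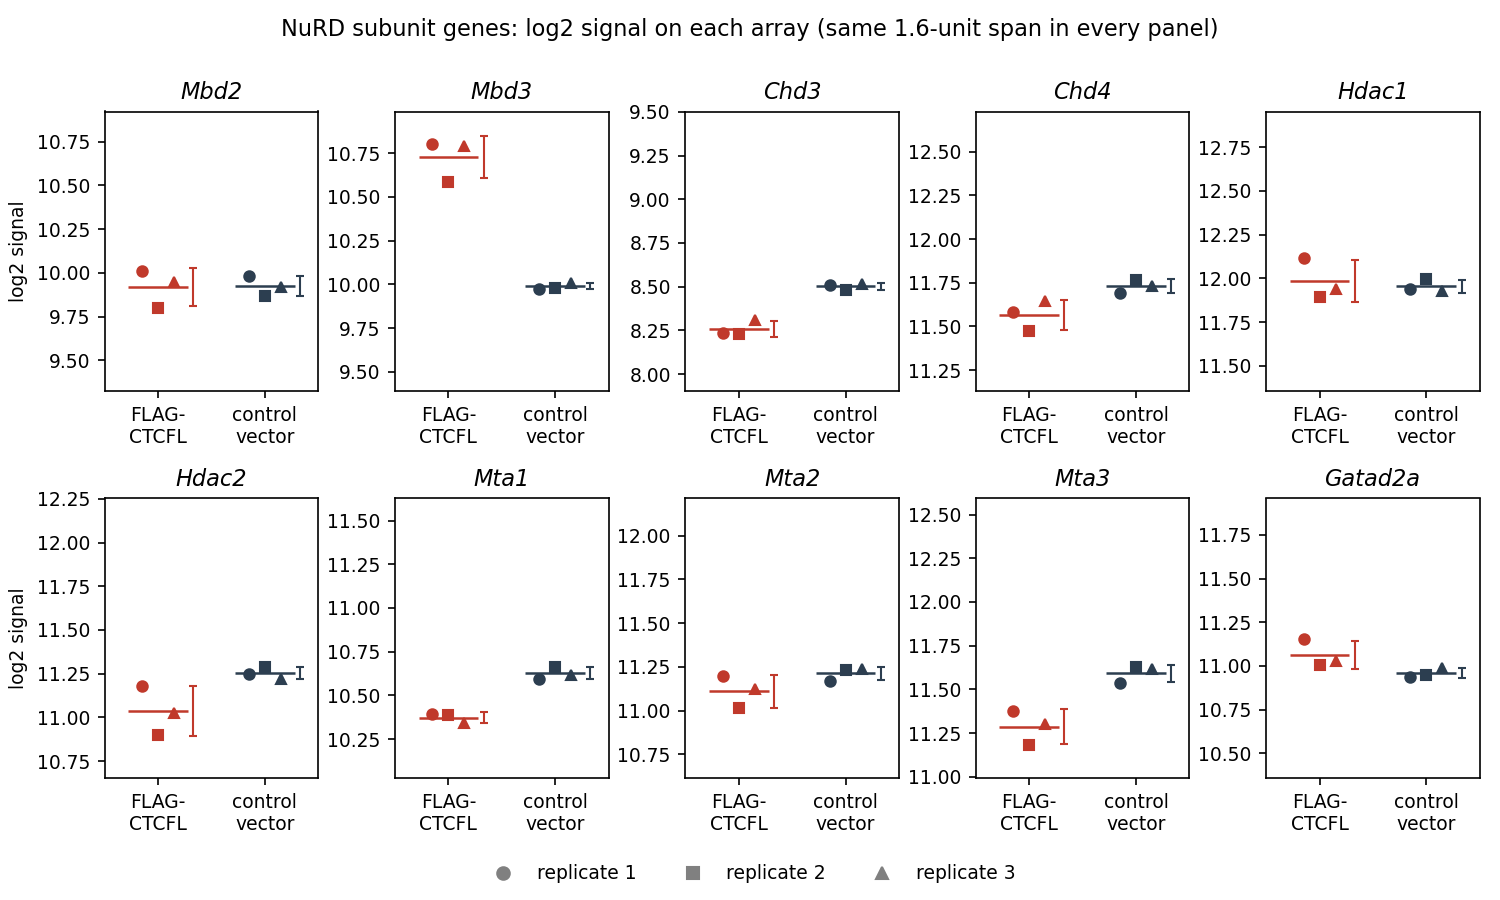
Log2 signal of the 10 NuRD genes on each array, with FLAG-CTCFL arrays in red and control vector arrays in dark blue; horizontal lines are group means and the bars beside them ± 1 SD (n = 3 per group). Mbd3 stands at 10.59 to 10.80 in FLAG-CTCFL arrays and 9.98 to 10.01 in control arrays, while Chd3, Chd4, Hdac2, Mta1 and Mta3 lie lower in FLAG-CTCFL arrays.

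Mbd3, the subunit on which NuRD assembly in ES cells depends, had log2 signals of 10.80, 10.59 and 10.79 in FLAG-CTCFL cells, against 9.98, 9.98 and 10.01 in control cells. The lowest FLAG-CTCFL array exceeded the highest control array by 0.58, and the control arrays lay within an SD of 0.02, against 0.12 in the FLAG-CTCFL group. The log2 fold change was 0.74 ± 0.06 (SE, n = 3 per group; 95% interval 0.62 to 0.86; adjusted p = 3.95e-07). Only 3.69% of the 2496 genes called higher had a larger change, and Mbd3 ranked 93 among them. This was the largest change of the 10 genes in either direction, and it passed the test under all 15 alternative settings, at 0.70 to 0.82.

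Mbd2, its methyl-CpG-binding counterpart, had 10.01, 9.80 and 9.95 in FLAG-CTCFL cells, against 9.98, 9.87 and 9.92 in control cells. The groups overlapped, with a log2 fold change of -0.0033 ± 0.06 (SE; 95% interval -0.13 to 0.12; adjusted p = 0.978). The interval leaves out a change as large as that of Mbd3, but not a small one. Read within each array, where a common scaling factor drops out, Mbd3 minus Mbd2 was 0.79, 0.79 and 0.84 in FLAG-CTCFL cells, against -0.0058, 0.11 and 0.09 in control cells. The log ratio was higher by 0.74 ± 0.04 (SE), in 3 of 3 FLAG-CTCFL arrays against every control array. An exact two-sided permutation test gave p = 0.1, the smallest that 3 against 3 arrays allow, and 0.175 when adjusted over the 7 paralog pairs compared. The level of such a ratio depends on the probes, so only its difference between groups can be read.

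The promoter of Mbd3 and those of a pair of falling members are shown because CTCF, whose zinc fingers CTCFL shares, was named after the letters CCCTC. They are the 250 bases before the annotated start, from RefSeq on GRCm38.p6; Mbd3 lies at chr10:80399532-80399781 on the minus strand, Hdac2 at chr10:36974294-36974543 and Mta1 at chr12:113098028-113098277, both on the plus strand. Capitals mark CCCTC and CCAAT on either strand (GAGGG and ATTGG on the other).
Mbd3: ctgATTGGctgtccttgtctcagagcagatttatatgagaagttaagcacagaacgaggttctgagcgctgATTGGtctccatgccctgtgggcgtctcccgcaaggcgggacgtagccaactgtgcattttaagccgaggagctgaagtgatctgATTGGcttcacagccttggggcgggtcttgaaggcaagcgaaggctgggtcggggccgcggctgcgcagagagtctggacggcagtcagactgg
Hdac2: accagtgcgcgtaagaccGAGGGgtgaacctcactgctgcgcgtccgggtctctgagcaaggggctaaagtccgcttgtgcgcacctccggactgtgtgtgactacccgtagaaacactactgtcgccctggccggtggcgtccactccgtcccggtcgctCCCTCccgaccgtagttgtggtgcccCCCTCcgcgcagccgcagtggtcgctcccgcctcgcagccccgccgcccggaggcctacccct
Mta1: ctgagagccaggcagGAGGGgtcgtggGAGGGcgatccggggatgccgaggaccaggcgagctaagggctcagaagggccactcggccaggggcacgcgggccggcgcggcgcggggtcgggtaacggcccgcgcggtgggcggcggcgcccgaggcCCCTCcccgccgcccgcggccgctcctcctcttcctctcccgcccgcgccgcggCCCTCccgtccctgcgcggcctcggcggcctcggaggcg

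The Mbd3 window held no CCCTC, the Hdac2 window 3 and the Mta1 window 4, against a share of 60.55% of all 32851 promoter windows with at least 1, 13.68% with at least 3 and 5.918% with at least 4. Conversely, the Mbd3 window held 3 CCAAT, the letters bound by the factor NF-Y, a count reached by 2.791% of windows, and those of Hdac2 and Mta1 none, but 3 of the 8 member windows searched held CCAAT, with 2 in a Gatad2a window and 1 in a Chd4 window; CCAAT was searched after the Mbd3 window had been read. All 8 windows searched belong to 6 members, Mbd3, Chd4, Hdac2, Mta1, Mta2 and Gatad2a, and 7 of the 8 held CCCTC. Member windows on chromosome 18, where Mbd2 lies, were left out of the search, and no window was available for Chd3, Hdac1 and Mta3. The counts therefore do not cover these members. A longer pattern (CCA, 2 free letters, AG, 2 free letters, then GGC) was also searched on either strand. None of the 8 member windows searched held it, against 2.067% of all windows. At that share, its absence from 8 windows cannot set these genes apart from others. The CCCTC counts did not follow the direction of change: both windows of Gatad2a, which did not fall, held 3, and those of Chd4, which fell, held 1 and 3. The windows differ in base composition, with GC contents of 57.6% for Mbd3, 68.8% for Hdac2 and 80.8% for Mta1, against a median of 52.4%. These matches describe the letters of the windows, and binding was not measured on these arrays.

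The remodelling ATPases were both lower. Chd4, the main NuRD remodeller of ES cells, had 11.58, 11.47 and 11.64 in FLAG-CTCFL cells, against 11.69, 11.77 and 11.73 in control cells. The groups were 0.04 apart at their nearest arrays, and the log2 fold change was -0.16 ± 0.05 (SE; 95% interval -0.27 to -0.05; adjusted p = 0.0251). This was the smallest of the falls, and the call was lost in 6 of 15 alternatives, among them quantile normalization (-0.08, adjusted p = 0.195) and leaving out FLAG-CTCFL replicate 2 (-0.12, 0.0692), control replicate 2 (-0.14, 0.111) or control replicate 3 (-0.16, 0.0746). Its paralog Chd3 had 8.23, 8.23 and 8.31 in FLAG-CTCFL cells, against 8.51, 8.48 and 8.52 in control cells. All 3 FLAG-CTCFL arrays were lower, by 0.24 ± 0.04 (SE; 95% interval of the difference -0.34 to -0.15; adjusted p = 0.000666), and the fall passed in all 15 alternatives. Chd3 was the dimmest of the 10, though above 7.63, a level that 95% of the 1194 genes for smell and pheromone receptors stay under. The log ratio of Chd4 to Chd3 was 3.31 ± 0.06 in FLAG-CTCFL cells and 3.23 ± 0.06 in control cells (SD, n = 3 each), with overlapping arrays (exact permutation p = 0.2; adjusted over the 7 pairs 0.28).

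The deacetylases differed from each other. Hdac2 had 11.18, 10.90 and 11.03 in FLAG-CTCFL cells, against 11.25, 11.29 and 11.22 in control cells. FLAG-CTCFL replicate 1 came within 0.04 of the lowest control array, and the log2 fold change was -0.22 ± 0.06 (SE; 95% interval -0.35 to -0.08; adjusted p = 0.0164). The call was lost without FLAG-CTCFL replicate 3 (-0.21, adjusted p = 0.0585) or control replicate 2 (-0.198, 0.0726), after subtraction of array medians (-0.199, 0.0630) and in the fit over all probe sets (0.0739). Hdac1 had 12.12, 11.89 and 11.94 in FLAG-CTCFL cells, against 11.94, 11.998 and 11.93 in control cells, and its groups overlapped. Its log2 fold change was 0.03 ± 0.06 (SE; 95% interval -0.09 to 0.15; adjusted p = 0.781).

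The paralogs were also compared within arrays. Hdac1 minus Hdac2 was 0.94, 0.99 and 0.92 in FLAG-CTCFL cells, against 0.69, 0.71 and 0.71 in control cells. The groups lay apart, with a difference of 0.25 ± 0.02 (SE; exact permutation p = 0.1, adjusted 0.175), and the difference was 0.22 to 0.26 with any 1 array left out. A second Hdac1 probe set carries the same transcript accessions, and the gene table lists a pseudogene name among the synonyms of Hdac1, so reads of Hdac1 are uncertain where a near-identical copy hybridises. That probe set had 11.14, 10.97 and 10.95 in FLAG-CTCFL cells, against 10.92, 11.01 and 10.97 in control cells, with overlapping groups and a log2 fold change of 0.05, against 0.03 for the first; neither passed.

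The MTA proteins, the scaffolds that bind the deacetylases, were all below control on average, and 2 of the 3 passed. Mta3 had 11.38, 11.18 and 11.30 in FLAG-CTCFL cells, against 11.54, 11.63 and 11.61 in control cells. Every FLAG-CTCFL array was lower, by 0.31 ± 0.05 on average (SE; 95% interval of the difference -0.42 to -0.19; adjusted p = 0.000624), the largest fall among the 10 genes. A second Mta3 probe set, annotated to a single predicted transcript, lay at 7.55 to 7.68 in FLAG-CTCFL cells and 7.54 to 7.68 in control cells, around the receptor gene level, and did not pass. When both probe sets were averaged the fall was 0.16 in size, with a log2 fold change of -0.16 (adjusted p = 0.0108).

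Mta1 had 10.39, 10.39 and 10.34 in FLAG-CTCFL cells, against 10.60, 10.66 and 10.62 in control cells. The spread was 0.03 within each group (SD), and the log2 fold change was -0.25 ± 0.04 (SE; 95% interval -0.35 to -0.16; adjusted p = 0.000440). Mta1 and Mta3 passed in all 15 alternatives. Mta2, the third scaffold, had 11.20, 11.01 and 11.12 in FLAG-CTCFL cells, against 11.17, 11.23 and 11.24 in control cells. FLAG-CTCFL replicate 1 lay above control replicate 1, and the log2 fold change of -0.10 ± 0.05 (SE; 95% interval -0.21 to 0.01; adjusted p = 0.178) passed only without FLAG-CTCFL replicate 1 (-0.15, 0.0410) and with array weights (-0.09, 0.0378).

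Within arrays, Mta2 minus Mta3 was -0.18, -0.17 and -0.18 in FLAG-CTCFL cells, against -0.37, -0.39 and -0.38 in control cells. The SDs were 0.0065 in FLAG-CTCFL cells and 0.013 in control cells, and the log ratio was higher by 0.20 ± 0.0085 (SE; exact permutation p = 0.1, adjusted 0.175). With the mean of the Mta3 probe sets the difference was 0.058. The dimmer of these probe sets lay around the receptor gene level, with a log2 fold change of -0.014. Mta1 minus Mta2 differed by -0.15 ± 0.06 (SE) without overlap, and Mta1 minus Mta3 by 0.05 ± 0.06 (SE; exact permutation p = 0.7) with overlap. The direction of Mta1 minus Mta3 turned with the mean of the Mta3 probe sets, to -0.09 ± 0.03 (SE), and without FLAG-CTCFL replicate 2, to -0.0090 ± 0.02 (SE). Over the 7 pairs, 4 had groups that did not overlap. The same held for 41.3% of all single genes and 59.5% of those at or above the median signal, and the share over other gene pairs was not computed. No pair could pass an adjusted threshold of 0.05 in this design.

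**Figure D2:**
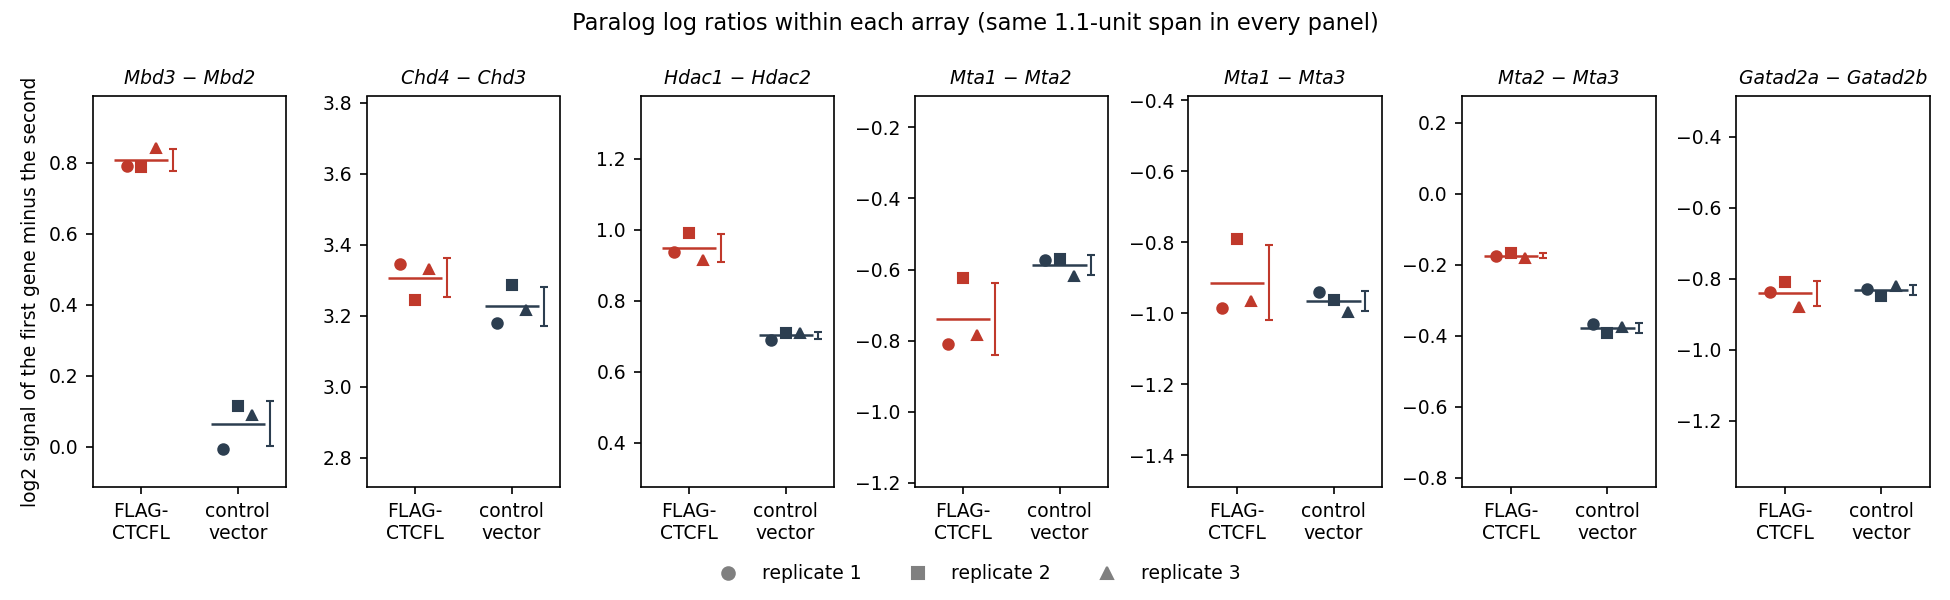
Log2 signal of the first gene minus that of the second on each array, for 7 pairs of paralogous NuRD genes, with FLAG-CTCFL arrays in red and control vector arrays in dark blue; lines are group means and bars ± 1 SD (n = 3 per group). Mbd3 minus Mbd2, Hdac1 minus Hdac2, Mta1 minus Mta2 and Mta2 minus Mta3 do not overlap between groups.

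Gatad2a, which bridges the MBD subunit to the remodeller, had 11.15, 11.005 and 11.03 in FLAG-CTCFL cells, against 10.94, 10.95 and 10.99 in control cells. Every FLAG-CTCFL array was above the control arrays, by as little as 0.01, and the log2 fold change of 0.10 ± 0.05 (SE; 95% interval -0.0024 to 0.21; adjusted p = 0.141) did not pass. After quantile normalization it did, at 0.18 (adjusted p = 0.00286). Its paralog Gatad2b followed the same course, with 0.11 ± 0.05 (SE; adjusted p = 0.116), and the log ratio of the pair differed by only -0.0090 ± 0.02 (SE) between groups (exact permutation p = 0.8).

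FLAG-CTCFL replicate 2 was the lowest array of its group for 9 of the 10 genes, and for 60.2% of all genes at or above the median signal. Without it 1 NuRD gene was higher and 4 were lower, Chd4 being the call lost. The part of this array's narrower distribution in the results was not tested beyond leaving it out and quantile normalization.

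Of the 6 other core genes, Cdk2ap1, a small subunit, rose by 0.16 ± 0.04 (SE; adjusted p = 0.0103), and Chd5, a remodeller best known from neurons and testis, fell, with a log2 fold change of -0.31 ± 0.04 (SE; adjusted p = 0.000109). The histone chaperones did not pass, at 0.10 for Rbbp4 (adjusted p = 0.106) and 0.0054 for Rbbp7 (adjusted p = 0.950), and neither did Gatad2b or Cdk2ap2 (-0.07). In this list 1 was higher and 1 lower of 6, with a median of 0.05. After quantile normalization Rbbp4 and Gatad2b passed too, giving 3 higher and 1 lower, so the direction of the balance depended on scaling.

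**Figure D3:**
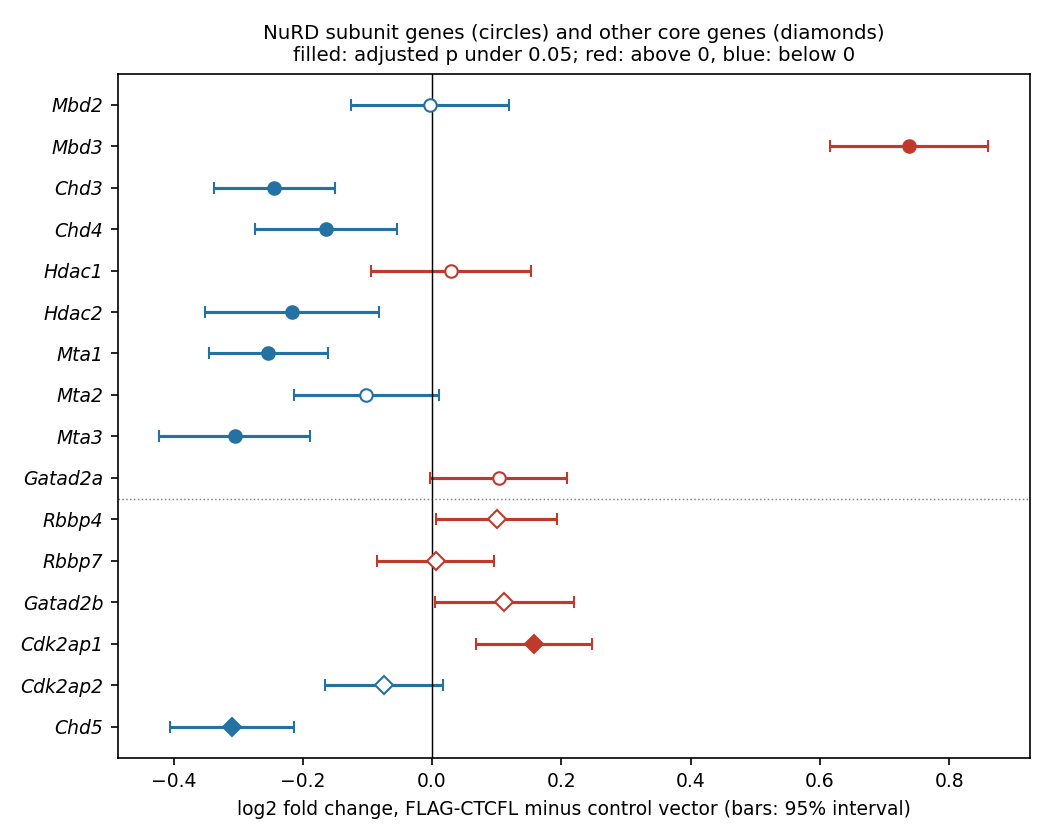
Log2 fold change (FLAG-CTCFL minus control vector) with 95% intervals for the 10 NuRD genes (circles) and 6 other core genes (diamonds); filled symbols passed at an adjusted p under 0.05. Mbd3, at 0.74, stands apart to the right, and the changed remodellers, Hdac2, Mta1 and Mta3 lie between -0.31 and -0.16.

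Proteins known to recruit or join NuRD moved both ways, with 3 of 15 measured higher and 4 lower (median -0.08). Trps1, a GATA-type zinc finger repressor, rose most, with means of 9.90 in FLAG-CTCFL cells and 8.81 in control cells and a log2 fold change of 1.09 ± 0.07 (SE; adjusted p = 4.07e-08), more than any NuRD gene. The zinc finger genes Zfp219 (-0.44), Zfp296 (-0.29) and Sall1 (-0.24) fell, while Sall4, a NuRD-binding factor of pluripotent cells, rose by 0.21. Among genes of other class I deacetylases and of other complexes that contain such enzymes, 4 of 26 were higher and 11 lower (median -0.04). After quantile normalization 8 were higher and 9 lower. Tbl1x, a corepressor subunit (-0.87), Hdac8 (-0.56), and the CoREST genes Phf21a (-0.52) and Rcor2 (-0.36) fell most. The CoREST genes did not move together: Rcor1 (0.28, adjusted p = 0.000895) and Rcor3 (0.22, adjusted p = 0.00660) were higher, and Hmg20b (-0.02) did not pass. Tbl1x and Hdac8 lie on chromosome X, as does Rbbp7, which did not pass. Of other listed genes on that chromosome, Atrx (-0.59) and Smarca1 (-0.21) were lower and Zbtb33 (-0.08) did not pass. The share called over the whole chromosome was not computed.

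Among the other remodelling ATPases 4 of 16 were higher and 4 lower (median -0.00027). Chd7, a relative of Chd4, rose by 0.71 ± 0.07 (SE; adjusted p = 3.89e-06), about as much as Mbd3. Chd8 (-0.65), on chromosome 14, Atrx (-0.59), on chromosome X, and Ino80 (-0.39) fell. Of 7 other genes for methyl-CpG-binding proteins or MBD family members, 1 was higher and 2 lower (median -0.07). Mbd6, of the MBD family, rose by 0.17, whereas the DNA glycosylase Mbd4 (-0.31) and Uhrf1 (-0.21), a partner of maintenance methylation, fell. The shares called in these 5 lists, 33.3% to 57.7%, span the 49.3% of genes called at or above the median signal.

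Genes reported to be restrained by Mbd3-containing NuRD in ES cells did not share a direction, with 4 of 9 higher and 2 lower (median 0.11). The share called was 66.7%, against 30.9% of all genes and 49.3% of those at or above the median signal. In the fit without genes under the median signal, Pramel6 and Cdx2 gave no value, and 2 listed genes were higher and 2 lower. Eomes, a trophoblast and mesoderm factor, had means of 8.95 in FLAG-CTCFL cells and 8.34 in control cells and rose by 0.61 ± 0.06 (SE; adjusted p = 3.12e-06), and Pramel6, a gene of the preimplantation embryo, rose by 0.48. The pluripotency factors Tbx3 (-0.66) and Klf4 (-0.35) fell, and Klf5 (-0.04) and Zfp42 (-0.12) did not pass. The higher genes were dim and the lower genes bright, with means of at most 8.95 in FLAG-CTCFL cells for Eomes, Pramel6, Pramel7 and Cdx2 and at least 10.96 for Klf4 and Tbx3. Cdx2 is also among the lineage markers and Zfp42 among the ES cell markers.

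The NuRD genes lie on 9 chromosomes, with Mbd3 and Hdac2 both on chromosome 10. As a background for the neighbours, 12.5% of all genes were called higher and 18.4% lower. Of the 20 measured genes nearest to Mbd3, 10 on each side, 4 were higher and 4 lower, with a median of 0.02 and a range of -0.46 to 0.31. The genes directly beside it had the largest rises of the 20: Mex3d, which codes for an RNA-binding protein, by 0.31 ± 0.05 (SE; adjusted p = 0.000190) and Uqcr11, a subunit of mitochondrial complex III, by 0.29 ± 0.06 (SE; adjusted p = 0.00226). Both passed in all 15 alternatives, and the next gene beyond Mex3d, Plk5, had the largest fall (-0.46). Plk5 was named after its value was seen.

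Chd4 differed in its surroundings. Of its 20 nearest genes on chromosome 6, 12 were called lower and 1 higher. Their median was -0.18, close to the -0.16 of Chd4 itself. Over all genes 18.4% were called lower and 12.5% higher. Among genes at or above the median signal the shares were 30.8% and 18.6%. The adjacent genes Acrbp (-0.44) and Nop2 (-0.30) fell more than Chd4. Around the other 9 NuRD genes at most 5 of 20 neighbours were lower, and the medians lay between -0.04 and 0.07. Beside Hdac2, Marcks fell by a larger amount (-0.65), and the gene before Mbd2, Poli (-0.59), fell although Mbd2 did not pass; of the genes adjoining Mta2, Eml3 was higher (0.13, adjusted p = 0.0384). The call of Eml3 was lost in 6 of 15 alternatives, among them leaving out replicate 2 or 3 of either group (adjusted p up to 0.176). Neither gene adjoining Mta1, Mta3, Chd3, Hdac1 or Gatad2a passed.

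**Figure D4:**
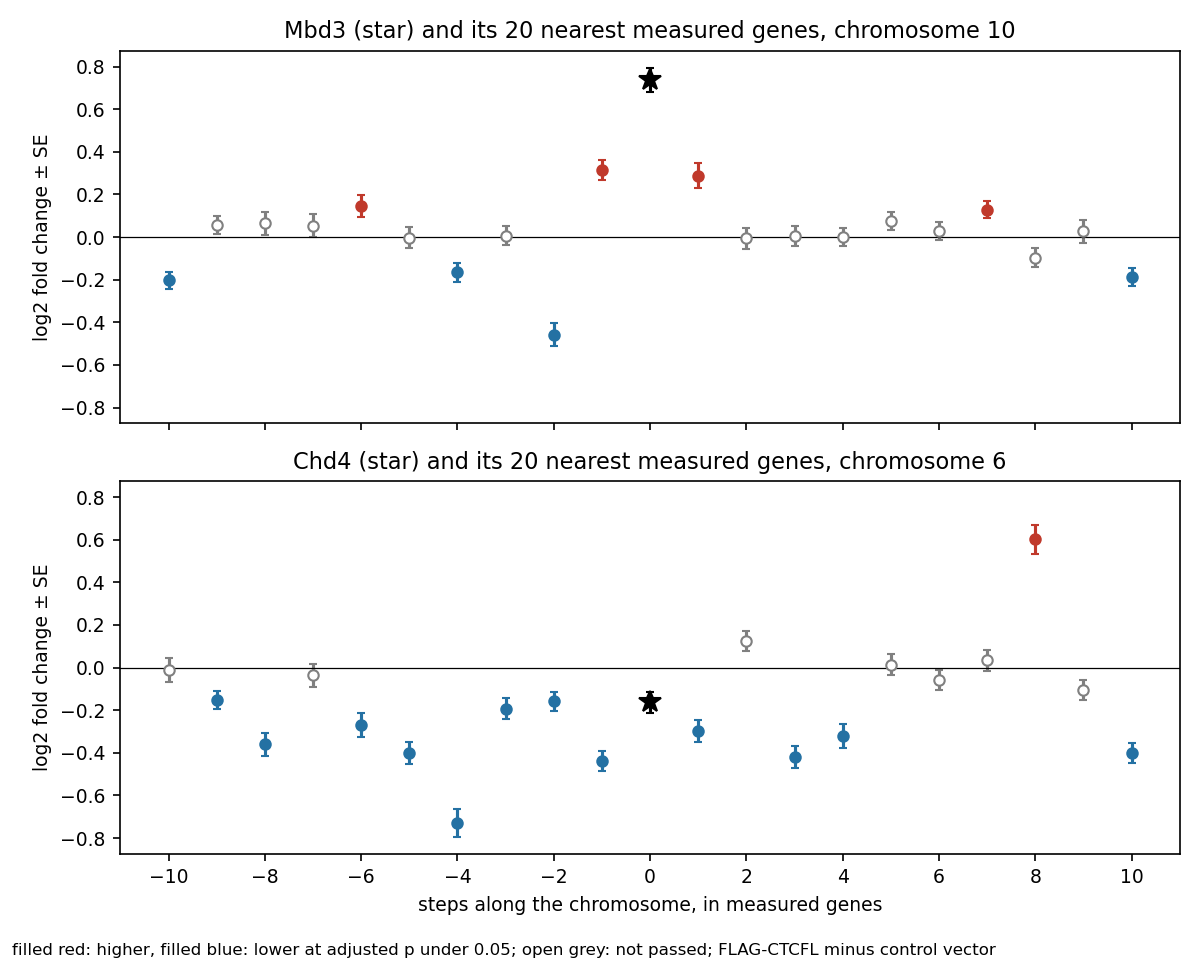
Log2 fold change ± SE (FLAG-CTCFL minus control vector) of Mbd3 and Chd4 (stars) and of the 10 measured genes on each side, in order along chromosomes 10 and 6; the horizontal axis counts genes, not bases. Mbd3 and its adjacent genes are higher amid neighbours with a median of 0.02, whereas Chd4 lies among mostly lower genes with a median of -0.18.

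Over the alternatives the NuRD genes fell into 3 sets. Mbd3, Chd3, Mta1 and Mta3 passed in all 15, each with its direction kept. Chd4 passed in 9 and Hdac2 in 11, with log2 fold changes of -0.20 to -0.08 and -0.29 to -0.14. Mta2 passed in 2, Gatad2a in 1, and Mbd2 and Hdac1 in none, Mbd2 changing sign in 5 and Hdac1 in 2.

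**Figure D5:**
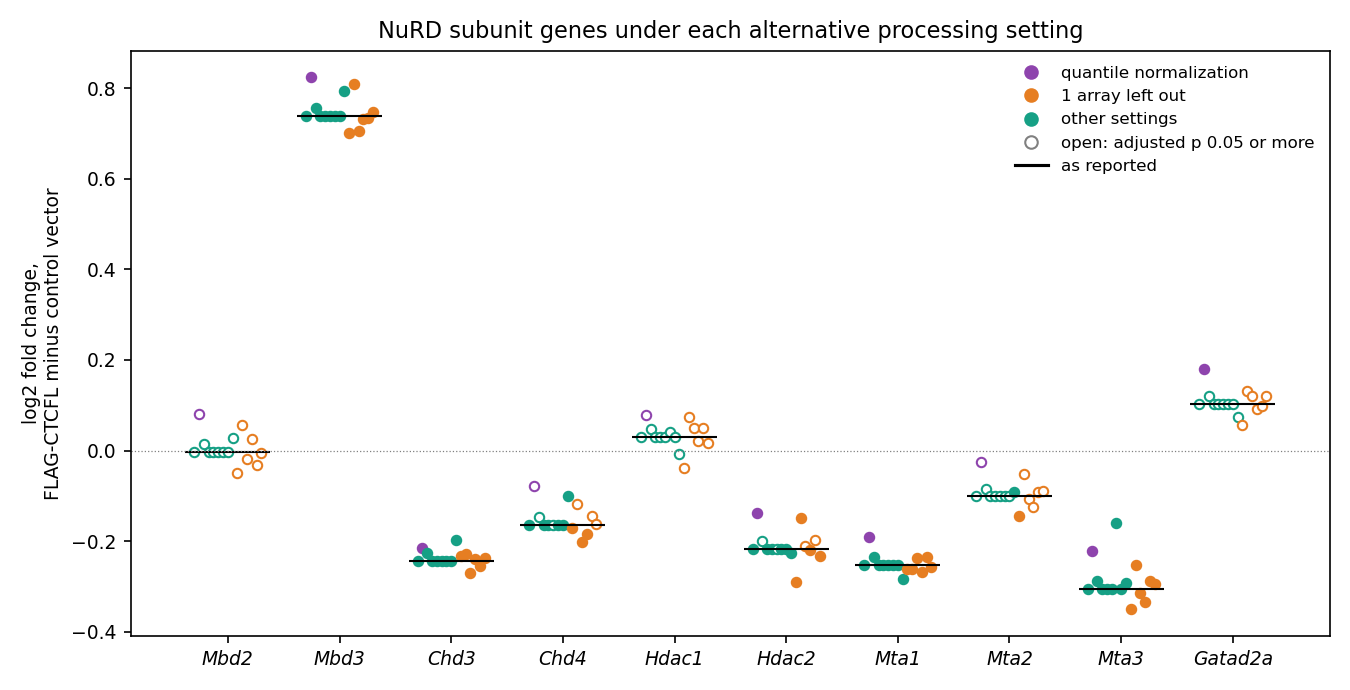
Log2 fold change (FLAG-CTCFL minus control vector) of each NuRD gene under 15 alternative settings (points; open where the adjusted p was 0.05 or more) and as reported (black lines). Quantile normalization moves every gene upward, and Mbd3 stays at 0.70 to 0.82 in all settings.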

How the data were processed

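Each deposited value is the log2 signal of a probe set on an array, from biotin-labelled total RNA on 1-colour Affymetrix Mouse Gene 1.0 ST arrays, per the labels' protocols. The log2 scale was read from the range of 5.73 to 14.56; the authors' background correction, summarisation and normalization are not given in sources used here. Of 34760 probe sets, the platform annotation gave 21640 a single gene symbol, 1321 several and 11799 none; names were updated by Entrez ID through a GRCm38.p6 gene table (21553 matched, 87 kept the annotated name). The probe set with the highest mean was kept for each gene, giving 19937 genes; the 10 NuRD genes had 12 probe sets. The contrast came from limma 3.58.1 under R 4.3.3 (lmFit and eBayes, no term but group, two-sided tests, Benjamini-Hochberg over all genes), FLAG-CTCFL minus control vector, tested on simulated data. No dim genes were left out. Paralog log ratios were compared by exact permutation over arrays. Named genes were all 10 members, from each list up to 4 changed genes with the largest change, Ctcfl, and adjacent genes. Rcor1, Rcor3, Hmg20b, Gata6, Smarca1 and Zbtb33 were named after their values were seen. Rbbp4, Rbbp7, Gatad2b, Cdk2ap2, Klf5, Zfp42, Pramel7 and Vim were also named, though the rule of largest changes does not select them. Members, lists, tests and alternatives were chosen with earlier results of these data known. Some listed genes are not reported here. Same-numbered arrays did not pair: their deviations from group means correlated at 0.13, -0.20 and -0.02. Promoters were searched and figures drawn with Python 3.11.15 and matplotlib 3.10.9. Alternatives are given in the closing section. No batch was tested, since scan dates were not used.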

Additional observations from a re-analysis of the deposited data

How the results depend on the processing

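Of the NuRD genes, 1 was higher and 5 were lower, and with the replicate number as a block (replicate block) the counts were the same, 1 and 5. After quantile normalization 2 were higher and 4 lower. After subtraction of array medians, and in the fit over all probe sets, 3 were lower, the calls of Chd4 and Hdac2 being lost. With 1 array left out 1 was higher throughout and 3 to 6 were lower, with 3 without control vector replicate 2 and 6 without FLAG-CTCFL replicate 1, where Mta2 passed too. The number of genes changed was 6161, with 4950 to 6429 when 1 array was left out, 5979 with the replicate block and 9204 with array weights; the cause was not tested. The genes of the 6 pathway lists that changed numbered 41, and 31 to 41 with 1 array left out. Of the 7 paralog log ratios 4 did not overlap between groups, 4 to 5 with 1 array left out, and 4 kept 1 sign in every same-numbered pair (replicate block). The same-numbered arrays share only a number, and the block changed none of the calls of the 10 NuRD genes, though Eml3, beside Mta2, lost its call. Without genes under the median signal Pramel6, Gata3, Pax6, Mixl1 and Cdx2 gave no value. Spread between 3 arrays a group limits small differences, and hybridisation to near-identical copies was not separated.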
